A study of Arabidopsis thaliana with 12 samples.

Results

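In mature Arabidopsis thaliana seeds, the seed coat was separated from the embryo by hand, with the endosperm still attached to it, and its messenger RNA was sequenced in the double mutant Atsdr4l-5 dig2 and in the wild-type accession Col-0. The comparison took in all libraries labelled seed coat, 3 of the mutant and 3 of Col-0, out of 12 libraries in the series. The other 6 libraries are the embryos of the same genotypes. The mutant group carries both mutant alleles, Atsdr4l-5 and dig2, and Col-0 carries neither. The labels do not describe the lesion of either allele, and only 1 double mutant line and no single mutant was included. Both groups were grown in long days of 16 h light and 8 h dark, harvested about 18 days after pollination, kept 2 days at room temperature and imbibed for 1 to 2 h before dissection. No treatment was given beyond this, and the 3 libraries of each group are described as biological replicates. Of 32833 gene entries, 16238 had enough reads to be tested. Levels are given as CPM, read counts scaled to a common library size with TMM factors, which compares a gene between libraries but not with a gene of another length. A gene is said to have risen or fallen in the mutant only where its adjusted p was under 0.05.

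The outer layers of a mature Arabidopsis seed are a dead, pigmented seed coat of maternal origin and, beneath it, a living layer of endosperm. That endosperm holds oil and storage protein of its own, responds to abscisic acid and gibberellin, and must weaken its walls before the root can emerge. AtSDR4L and DIG2 belong to a small plant family, also called AITR, whose members are nuclear repressors with roles in abscisic acid responses and in seed dormancy. Since these are bulk samples, fewer cells of a type and less RNA per cell cannot be told apart.

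The mutant libraries held 13685009 to 15923520 reads on genes and the Col-0 libraries 10301817 to 14947969. Log2 CPM correlated at 0.974 to 0.986 within a genotype and at 0.905 to 0.922 between genotypes, and the first principal component of the 6 libraries, with 73.6% of the variance, separated them by genotype. EPR1, an extensin gene of the endosperm, alone took up 14.9 ± 0.481% of reads in mutant and 14.6 ± 0.934% in Col-0 seed coats (SD, n = 3 each). Summed over 15 endosperm markers, levels were 184000 to 202000 CPM in mutant and 135000 to 165000 CPM in Col-0 libraries, nearly all of it EPR1. In the embryo libraries the same sum was 210 to 326 CPM in the mutant and 235 to 278 CPM in Col-0. Only 4 of these 15 markers were tested in the seed coat, of which 2 rose (1 under total-read scaling) and 0 fell. The 15 seed coat markers summed to 42.1 to 43.6 CPM in mutant and 31.3 to 34.2 CPM in Col-0 seed coats, and most of these genes act early in seed coat development. As shares of all reads these sums overlapped (0.00319% to 0.00357% in mutant and 0.0029% to 0.00335% in Col-0, exact two-sided permutation p = 0.4). Only 7 of these 15 markers were tested, of which 2 rose and 0 fell, and 0 were called under total-read scaling. The 22 markers of the embryo, the tissue removed, summed to 54 to 60.4 CPM in mutant and 70.9 to 81.7 CPM in Col-0 seed coats, against medians of 121 CPM in mutant and 136 CPM in Col-0 embryos. Of these 22 markers 5 had 0 reads in each seed coat group, and of the 16 tested 2 rose and 5 fell. The part of embryo tissue or of cell composition in the results was not tested.

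The mutation was accompanied by changes throughout the transcriptome of the seed coat. Of the genes tested, 4035 rose and 3819 fell, and the share called was 48.4% (24.8% higher and 23.5% lower). At least 2-fold changes were called for 1842 higher genes (11.3%) and 1304 lower genes (8.03%), and at least 4-fold changes for 652 higher and 418 lower genes. The 3 mutant and 3 Col-0 values did not overlap for 55.5% of genes. The genes of highest mean CPM rose more often than they fell: of 104 genes over 1000 CPM, 61 rose and 14 fell, whereas of 1328 genes between 100 and 1000 CPM, 433 rose and 394 fell. TMM factors were 0.749 to 0.82 in the mutant and 0.919 to 1.004 in Col-0, and scaling by total reads alone moved the median of all genes to log2 -0.3, with 2413 higher and 6189 lower, so that rises made up 28.1% of the calls in place of 51.4%. All changes below are therefore relative to the bulk of genes.

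**Figure D1:**
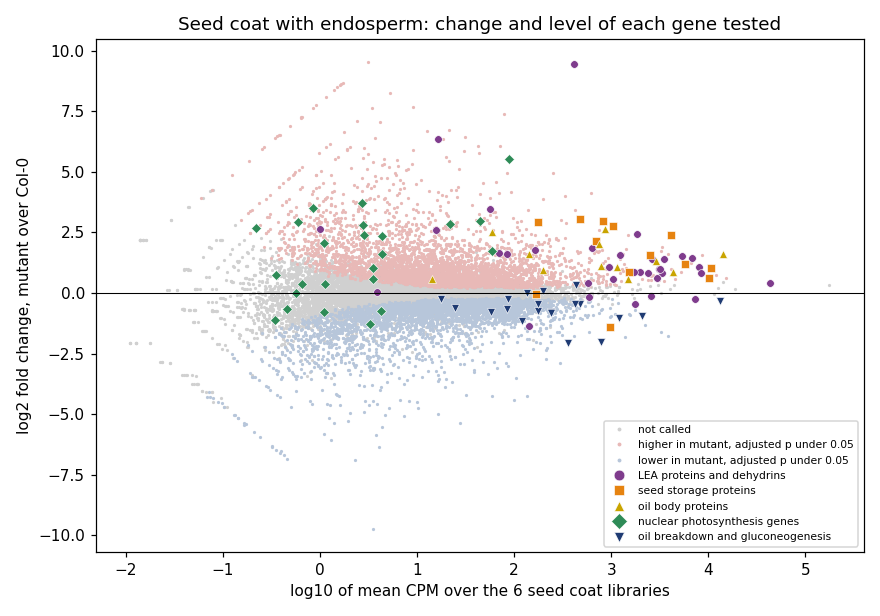
Change of each tested gene in the seed coat (log2 fold change, mutant over Col-0) against its mean level (log10 CPM over the 6 libraries), with grey points not called and pale points called higher or lower. LEA, storage and oil body genes lie mostly above 0 at the abundant end and oil breakdown genes mostly below 0, with ERD10 at log2 9.43 the highest of the marked genes.

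Genes were grouped into 28 lists by function, and the counts of each list stand beside the share of all tested genes that rose (24.8%) or fell (23.5%). The lists with the largest share of risers were the oil body proteins, with 12 of 12 higher, the seed storage proteins (11 of 13), the AITR and DIG family (4 of 5), the LEA proteins and dehydrins (27 of 34) and nuclear photosynthesis genes (15 of 24). Oil breakdown and gluconeogenesis stood at the other end, with 14 of 20 lower and 1 higher. Cell wall loosening (5 of 13 lower), VAL and Polycomb repressors (7 of 17) and fatty acid synthesis (6 of 13) also held more lower than higher members. Members under the read limit were not counted, and a gene near that limit could pass it through the group where it was high.

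**Figure D2:**
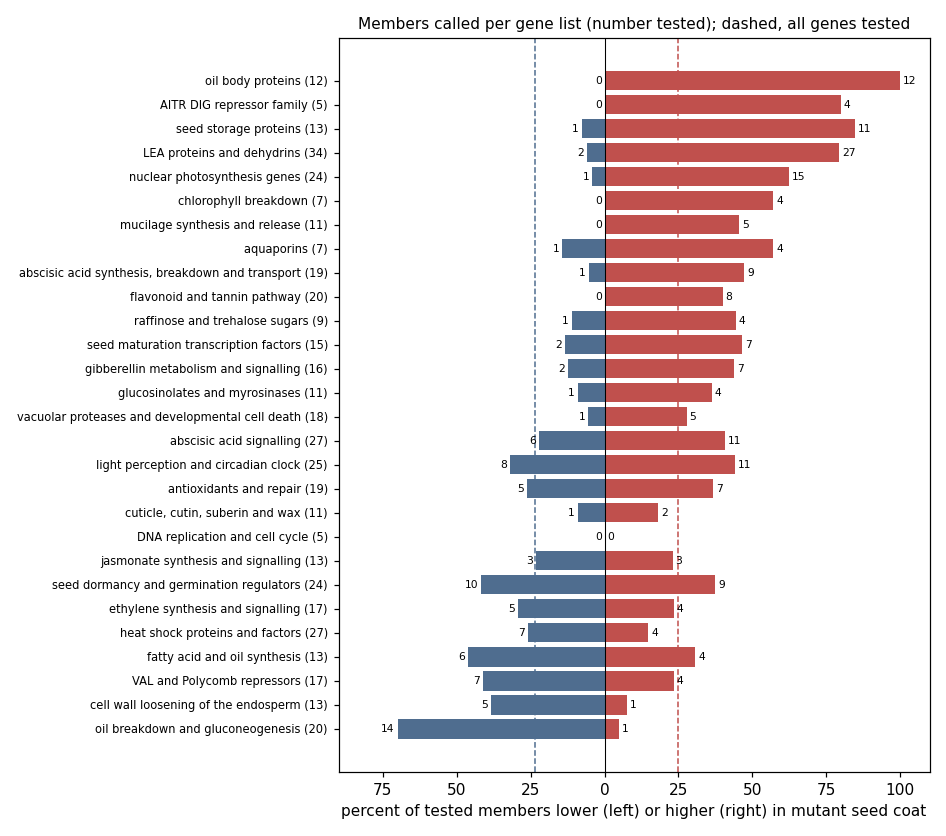
Percent of tested members of each gene list that rose (right, red) or fell (left, blue) in mutant seed coats, with the number at each bar and the number tested in brackets. Dashed lines mark the shares over all genes, 24.8% higher and 23.5% lower, and the oil body and oil breakdown lists lie at the extremes.

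Of the 6 loci grouped here as the AITR and DIG family, 5 were tested, of which 4 rose and 0 fell. The reference names none of these loci, their grouping is from general knowledge, and no source used here ties the mutant alleles to a locus, so a targeted gene could not be used to check the genotype labels. AT5G50360, the most abundant of them in Col-0, had 165, 106 and 155 CPM in the mutant libraries, against 103, 179.7 and 199 CPM in the Col-0 libraries, which overlapped (log2 -0.17 ± 0.31 (SE), adjusted p = 0.669). AT5G63350 had 432, 289 and 414 CPM in the mutant, against 59.9, 78.7 and 101 CPM in Col-0, with every mutant library above every Col-0 library (log2 2.25 ± 0.33 (SE), adjusted p = 0.000127). AT3G48510 reached 20.1, 19.4 and 18.96 CPM in the mutant, against 2.93, 3.24 and 4.82 CPM in Col-0 (log2 2.44 ± 0.37 (SE), adjusted p = 0.000177). AT5G40800 had 6.94, 5.17 and 8.73 CPM in the mutant, against 0.533, 0.151 and 0.209 CPM in Col-0, where it was nearly silent (log2 4.43 ± 0.43 (SE), adjusted p = 4.44e-06). AT3G27250 had 4 reads in the mutant and 0 in Col-0, both under the floor of 3 reads per library, and its call (adjusted p = 0.0316) was lost in 8 alternatives, so no fold is given. AT5G40790 had no reads in any seed coat library.

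Seed dormancy regulators split, with 9 of 24 higher and 10 lower (9 and 12 under total-read scaling), but DOG1 rose more than any other member. DOG1, the main quantitative regulator of dormancy, had 402, 332 and 389 CPM in mutant seed coats, against 16.2, 26.5 and 35.1 CPM in Col-0. The lowest mutant library lay far above the highest Col-0 library (log2 3.86 ± 0.27 (SE), adjusted p = 2.98e-07). TCP14, a factor that promotes germination, stood at 11.1, 8.38 and 8.81 CPM in the mutant and 1.2, 1.28 and 1.15 CPM in Col-0 (log2 2.94 ± 0.15 (SE), adjusted p = 4.17e-08). AIL5, an AP2 factor that affects abscisic acid responses in seeds, rose to 20.3 ± 3.67 CPM, against 7.91 ± 1.703 CPM in Col-0 (SD, n = 3 each; adjusted p = 2.5e-05). The genes annotated as delay of germination proteins did not move together: AT4G18680 rose (log2 1.42, adjusted p = 5.5e-06), while AT4G18660 fell to 5.398, 8.203 and 4.45 CPM in the mutant, against 19.7, 25.96 and 22.2 CPM in Col-0 (log2 -1.91, adjusted p = 2.13e-05).

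The tested genes that follow DOG1 on chromosome 5 went the other way, an observation made after their values were seen. AT5G45840, a leucine-rich repeat kinase gene, fell from a low level (log2 -2.87, adjusted p = 0.00172). It had 0, 0.178 and 0.42 CPM in the mutant, against 2.07, 1.58 and 0.943 CPM in Col-0, so the size of its fall rests on few reads. PYL11 and PYL12, receptors of abscisic acid in the same stretch, had 1.83, 1.605 and 2.77 CPM and 2.699, 2.14 and 2.94 CPM in the mutant, against 12.5, 17.1 and 20.7 CPM and 5.73, 6.04 and 6.599 CPM in Col-0. On the other side MEE62 fell (log2 -0.47), with adjusted p = 0.0801 without Col-0 replicate 1 and 0.0616 without mutant replicate 2. AT5G45790 rose (log2 0.89), a call lost under total-read scaling (adjusted p = 0.0728). For both receptors every mutant value was below every Col-0 value (log2 -3.0 and -1.23; adjusted p = 1.35e-05 and 0.00381).

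**Figure D3:**
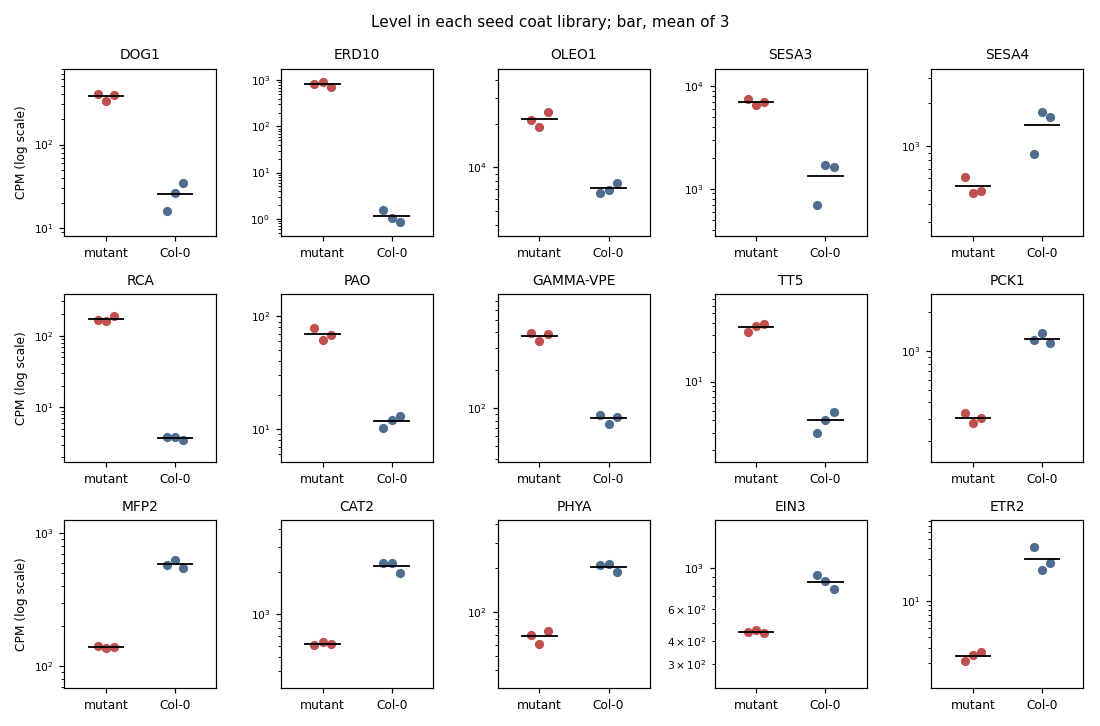
Level of 15 genes in each seed coat library (CPM, log scale, scales differ between panels), mutant left and Col-0 right, with the mean of 3 as a bar. In every panel the 3 mutant points lie apart from the 3 Col-0 points, from DOG1 and ERD10, which are higher in the mutant, to PCK1, MFP2 and ETR2, which are lower.

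Among seed maturation transcription factors 7 of 15 rose and 2 fell (6 and 3 under total-read scaling), a median log2 of 0.39 against -0.0038 over all genes. EEL, a bZIP factor of maturation, had 58.9, 51.6 and 55.4 CPM in the mutant and 11, 15.695 and 12.8 CPM in Col-0, 3 separate values on each side (log2 2.07 ± 0.14 (SE), adjusted p = 2.26e-07). ABI3, a master regulator of maturation and desiccation tolerance, had 327, 279 and 290.2 CPM in the mutant and 111, 133 and 119.7 CPM in Col-0 (log2 1.3, adjusted p = 3.26e-06). FUS3, its relative, had 103, 131 and 80.6 CPM in the mutant, against 31.3, 44.7 and 30.5 CPM in Col-0, and again the groups did not overlap (log2 1.56, adjusted p = 5.48e-05). BBM, an AP2 factor of embryo identity, reached 2.89, 3.299 and 3.52 CPM in the mutant, against 0, 0.377 and 0.209 CPM in Col-0 (log2 4.07, adjusted p = 6.34e-06). ABI5, a bZIP factor that arrests germination under abscisic acid, rose less, to 728 ± 73.4 CPM in the mutant, against 401 ± 73.6 CPM in Col-0 (SD, n = 3 each; log2 0.86, adjusted p = 0.00118).

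The repressors that switch the maturation program off after germination had 7 of 17 members lower and 4 higher (8 and 2 under total-read scaling), although the median of the list was log2 0.11. VAL1, which recruits silencing to maturation genes, had 38.7, 41.6 and 41.8 CPM in the mutant and 67.6, 67.6 and 64.6 CPM in Col-0 (log2 -0.71 ± 0.09 (SE), adjusted p = 4.47e-05). BMI1A, a Polycomb subunit that acts with VAL proteins, fell to 3.18, 3.299 and 3.52 CPM in the mutant, against 10.4, 13.96 and 12.2 CPM in Col-0 (log2 -1.86, adjusted p = 1.77e-05). LHP1, a reader of the Polycomb mark, fell by a smaller amount (log2 -0.53, adjusted p = 0.000287). Against this direction, VAL3 rose from a low level, with 2.31, 4.28 and 2.601 CPM in the mutant and 0.267, 0.604 and 0.733 CPM in Col-0, and VRN2, a Polycomb subunit, also rose (log2 2.57 and 1.36; adjusted p = 0.00024 and 1.02e-05).

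Seed storage protein genes rose in 11 of 13 members, with a median log2 of 1.58, and their share of all gene reads was 4.15%, 3.95% and 4.31% in the mutant libraries, against 2.04%, 2.63% and 2.3% in Col-0. The shares did not overlap, although 3 libraries against 3 cannot give an exact two-sided permutation p under 0.1, the value found. AT4G36700, a cupin family gene, led the list, with 1676, 1146 and 1524 CPM in the mutant, against 135, 204 and 218 CPM in Col-0 (log2 2.96 ± 0.22 (SE), adjusted p = 5.45e-07). CRA1, a cruciferin and a main storage globulin, and PAP85, a vicilin-like globulin, rose by about the same amount (log2 1.18 and 1.03). CRB, another cruciferin, was not called, with 196, 132 and 171 CPM in the mutant and 97.1, 234 and 184 CPM in Col-0.

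The albumin genes SESA1 to SESA4 lie side by side on chromosome 4, and SESA4 moved against its neighbours. SESA3 had 7432, 6517 and 7084 CPM in the mutant, against 692, 1699 and 1617 CPM in Col-0 (log2 2.39 ± 0.32 (SE), adjusted p = 6.5e-05). SESA4, the next gene along, had 616, 477 and 487 CPM in the mutant, against 879, 1733 and 1597 CPM in Col-0 (log2 -1.41 ± 0.22 (SE), adjusted p = 0.000234). No mutant value overlapped a Col-0 value for either gene, in opposite directions. SESA1 and SESA2 rose with SESA3 (log2 3.04 and 2.76; adjusted p = 2.59e-06 and 1.89e-06). These paralogs are similar in sequence, and reads matching several loci were set aside, so reads could be missing from the counts or assigned to the wrong paralog. SESA4, CRB and CRA1 were singled out after their values were seen. The 250 bases before each gene's start (RefSeq annotation of TAIR10.1) are shown for the pair that parted, SESA3 at chr4:13611546-13611795 and SESA4 at chr4:13613346-13613595, both on the plus strand. Capitals mark 2 motifs on either strand: CATGCA, the core of the RY element bound by B3 factors such as ABI3 and FUS3, and ACGTG, the core of the abscisic acid response element bound by bZIP factors such as ABI5. On the opposite strand they read TGCATG and CACGT. Where the response element is a palindrome it is counted on both strands, and neighbouring motifs can overlap.
SESA3: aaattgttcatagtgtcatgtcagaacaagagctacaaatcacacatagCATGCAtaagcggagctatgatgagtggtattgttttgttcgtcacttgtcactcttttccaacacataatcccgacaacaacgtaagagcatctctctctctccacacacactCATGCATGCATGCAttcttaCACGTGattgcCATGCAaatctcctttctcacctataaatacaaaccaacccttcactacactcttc
SESA4: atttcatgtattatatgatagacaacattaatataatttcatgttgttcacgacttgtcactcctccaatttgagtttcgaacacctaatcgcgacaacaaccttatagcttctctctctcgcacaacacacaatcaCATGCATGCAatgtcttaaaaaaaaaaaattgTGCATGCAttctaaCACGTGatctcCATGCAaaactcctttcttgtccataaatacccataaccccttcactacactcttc
SESA3 held 7 copies of CATGCA and 2 of ACGTG, and SESA4 held 6 and 2. Both promoters thus held both motifs.

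All 12 oil body protein genes that could be tested rose (11 under total-read scaling), with a median log2 of 1.22. Oleosins coat the oil droplets of seed cells and keep them apart, and OLEO1 is the most abundant of them here. OLEO1 had 21185, 18904 and 24101 CPM in the mutant libraries, against 6655, 6957 and 7744 CPM in the Col-0 libraries. Every mutant value was far above every Col-0 value (log2 1.59 ± 0.17 (SE), adjusted p = 8.74e-06). CLO1, a caleosin of the same droplets, had 1498, 1338 and 1632 CPM in the mutant and 194, 237 and 295 CPM in Col-0 (log2 2.62 ± 0.17 (SE), adjusted p = 2.42e-07), and the oleosin OLEO3 and the oleosin family gene AT2G25890 rose to a like extent (log2 2.53 and 2.01). Oil body transcripts made up 2.99 ± 0.255% of reads in mutant and 1.42 ± 0.115% in Col-0 seed coats (SD, n = 3 each; exact two-sided permutation p = 0.1, the smallest possible). The 250 bases before OLEO1, chr4:12900180-12900429 on the plus strand of TAIR10.1, hold 3 copies of CATGCA and 5 of ACGTG, marked in capitals as above.
OLEO1: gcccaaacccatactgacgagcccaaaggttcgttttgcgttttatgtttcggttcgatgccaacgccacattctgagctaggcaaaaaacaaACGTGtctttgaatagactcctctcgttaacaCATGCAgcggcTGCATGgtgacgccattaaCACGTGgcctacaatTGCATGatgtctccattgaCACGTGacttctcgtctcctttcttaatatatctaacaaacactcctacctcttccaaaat

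LEA proteins and dehydrins, which protect membranes and proteins in the dry state, rose in 27 of 34 members and fell in 2 (26 and 4 under total-read scaling). The dehydrin ERD10 had the largest rise of the genes named. It had 819, 901 and 729.8 CPM in the mutant, against 1.53, 1.06 and 0.838 CPM in Col-0 (log2 9.43 ± 0.21 (SE), adjusted p = 1.34e-09). The transcript was abundant in all mutant libraries and scarce in all Col-0 libraries. COR47, the adjacent dehydrin gene on chromosome 1, had 30.2, 40.1 and 27.9 CPM in the mutant and 0.733, 0.226 and 0.105 CPM in Col-0 (log2 6.35, adjusted p = 1.16e-07). Another acidic dehydrin, ERD14, had 103, 116 and 92.6 CPM in the mutant, against 9.13, 10.04 and 9.43 CPM in Col-0 (log2 3.45 ± 0.17 (SE), adjusted p = 3.13e-08). The genes on either side of the ERD10 and COR47 pair changed by little or were not called: AT1G20460 rose by log2 0.37 (adjusted p = 0.0247), a call lost in 8 alternatives, and AT1G20430 had log2 0.04 (adjusted p = 0.916). Unlike these 3, RAB18, by far the most abundant dehydrin here, was not called, with 50686, 44251 and 52865 CPM in the mutant and 31094, 40168 and 38380 CPM in Col-0, although these values did not overlap (log2 0.43, adjusted p = 0.139). LEA7, an abundant member, rose (10865 ± 803 CPM in the mutant, against 5145 ± 325 CPM in Col-0; SD, n = 3 each; adjusted p = 0.000106). The 2 members that fell were EM1 and EM6, early methionine-labelled proteins of the dry seed: EM1 had 104, 43.96 and 90.4 CPM in the mutant, against 112.5, 281 and 211 CPM in Col-0 (log2 -1.34, adjusted p = 0.00781), and the call of EM6 (log2 -0.44, adjusted p = 0.0432) was lost in 7 alternatives. RAB18, EM1, EM6, AT1G20460 and AT1G20430 were singled out after their values were seen. The list took 11.1 ± 0.498% of reads in mutant and 8.31 ± 0.579% in Col-0 seed coats (SD, n = 3 each). The 250 bases before ERD10, chr1:7089607-7089856 on the minus strand of TAIR10.1, are shown because the largest rise of the genes named came with 0 matches to either motif in this window.
ERD10: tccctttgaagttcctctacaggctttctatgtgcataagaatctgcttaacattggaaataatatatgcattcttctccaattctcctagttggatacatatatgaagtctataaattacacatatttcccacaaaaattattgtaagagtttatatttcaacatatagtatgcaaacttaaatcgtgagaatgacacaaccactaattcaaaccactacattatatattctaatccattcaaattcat

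Genes that break down stored oil and turn it into sugar fell in 14 of 20 members (17 under total-read scaling, where 0 rose). In germinating seeds fatty acids are oxidised in peroxisomes and pass through the glyoxylate cycle to gluconeogenesis. SDP1, the lipase at the start of the route, fell (log2 -0.67, adjusted p = 0.000143), and PXA1, which imports fatty acids into peroxisomes, had 182, 170.2 and 168 CPM in the mutant, against 295, 309 and 299 CPM in Col-0 (log2 -0.8 ± 0.08 (SE), adjusted p = 5.78e-06). MFP2, a multifunctional enzyme of fatty acid oxidation, had 143, 138 and 139.6 CPM in the mutant, against 579, 622 and 549 CPM in Col-0. The mutant values lay far below all Col-0 values (log2 -2.06 ± 0.09 (SE), adjusted p = 1.58e-08). KAT2, the thiolase that ends each round, had 797, 765 and 785 CPM in the mutant and 1661, 1610.2 and 1530.3 CPM in Col-0 (log2 -1.03, adjusted p = 3.49e-06). In the glyoxylate cycle MLS, malate synthase, fell to 1484, 1222 and 1527 CPM in the mutant, against 2703, 2992 and 2516 CPM in Col-0 (log2 -0.96, adjusted p = 9.09e-05), while ICL, isocitrate lyase, was not called (11614, 9962 and 13737 CPM in the mutant and 16095, 16111 and 12284 CPM in Col-0; adjusted p = 0.179). PCK1, which starts gluconeogenesis from the products, had 331, 277 and 306 CPM in the mutant, against 1228, 1372 and 1144 CPM in Col-0 (log2 -2.04 ± 0.13 (SE), adjusted p = 1.96e-07). AIM1, a second multifunctional oxidation enzyme, was the 1 member that rose (log2 0.31, adjusted p = 0.0255), a call lost in 7 alternatives. SDP1, AIM1 and ICL were singled out after their values were seen. The list took 1.28%, 1.22% and 1.42% of reads in the mutant libraries and 2.56%, 2.4% and 1.97% in Col-0, and ICL was its most abundant member. CAT2, the peroxisomal catalase that clears the peroxide of this route, fell alongside, from the antioxidant list, with 605, 633 and 619 CPM in the mutant, against 2299, 2287 and 1946 CPM in Col-0 (log2 -1.81 ± 0.13 (SE), adjusted p = 3.77e-07). The 250 bases before PCK1, chr4:17806706-17806955 on the minus strand, hold 0 copies of CATGCA and 1 of ACGTG.
PCK1: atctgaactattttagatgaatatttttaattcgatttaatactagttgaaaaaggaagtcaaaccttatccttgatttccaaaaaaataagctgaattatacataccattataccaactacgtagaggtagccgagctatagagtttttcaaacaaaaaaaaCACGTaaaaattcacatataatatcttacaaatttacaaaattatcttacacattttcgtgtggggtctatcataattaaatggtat

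Fatty acid and oil synthesis genes were divided, with 4 of 13 higher and 6 lower (3 and 6 under total-read scaling). FAB2, the desaturase that makes oleic acid in plastids, had 116, 113 and 133 CPM in the mutant, against 24.4, 26.3 and 26.3 CPM in Col-0 (log2 2.23 ± 0.11 (SE), adjusted p = 3.37e-08). FAD2, which desaturates oleic acid further in the endoplasmic reticulum, moved the other way, with 7.33, 9.898 and 8.98 CPM in the mutant, against 38.5, 34.2 and 33.3 CPM in Col-0 (log2 -2.01 ± 0.14 (SE), adjusted p = 3.25e-07). FAD3, the next desaturase, rose (log2 1.48, adjusted p = 0.000115).

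The motif shares were counted in the 250 bases before every protein-coding gene. ACGTG occurred in 22.9% and CATGCA in 8.43% of all 27443 promoters, and in 23.9% and 7.0% of the 15739 promoters of tested genes. Among genes at least 2-fold higher in the mutant, 38.1% of 1766 promoters held ACGTG and 10.1% held CATGCA, and among genes at least 2-fold lower 21.1% and 7.27% of 1251 did. The share with ACGTG was 36.2% at log2 2 or higher, 38.0% at 1 to 2, 26.3% at 0.5 to 1 and 21.9% at -0.5 to 0.5. On the lower side it was 18.6% at -1 to -0.5, 21.2% at -2 to -1 and 21.9% at -2 or lower, close to or under the share in the middle class. CATGCA was about as frequent at log2 -2 or lower (9.46%) as at 1 to 2 (9.4%), against 6.15% in the middle class and 11.6% at 2 or higher. Among genes over 100 CPM the contrast was wider. There ACGTG stood in 46.9% of 488 promoters of genes that rose and in 22.5% of 404 that fell. At this level it also stood in 27.9% of 526 promoters of genes not called, against 21.8% of genes not called at any level. CATGCA stood in 75 of the 488 promoters, in 20 of the 404 and in 37 of the 526. By list, CATGCA was in 84.6% of storage protein promoters, 84.6% of oil body promoters and 0% of oil breakdown promoters, and ACGTG was in 76.3% of LEA promoters and 23.8% of oil breakdown promoters. A motif match is a description of the letters in this window and not a bound site.

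**Figure D4:**
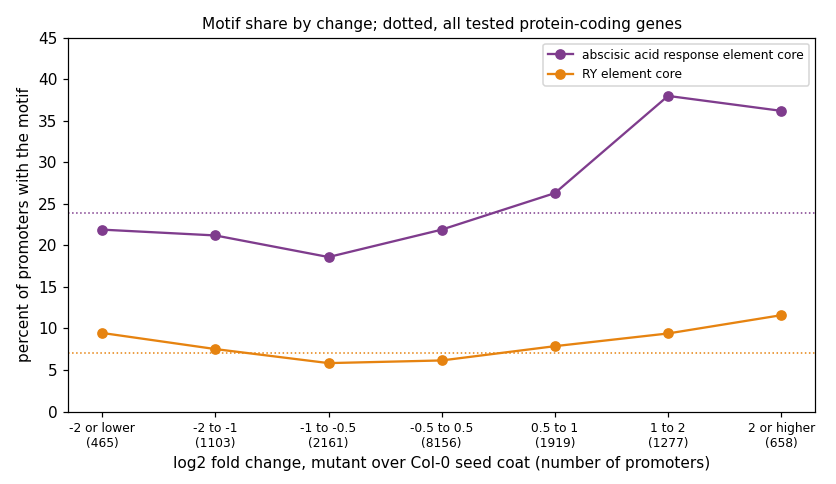
Percent of promoters (250 bases before the gene start) that hold the abscisic acid response element core or the RY element core, by log2 fold change in the seed coat, with the number of promoters in brackets. Dotted lines mark all tested protein-coding genes, 23.9% and 7.0%, and the response element core reaches 38.0% at log2 1 to 2.

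Abscisic acid genes moved at several levels of the pathway. In synthesis, breakdown and transport 9 of 19 rose and 1, NCED5, fell (7 and 2 under total-read scaling). NCED6, a synthesis gene of the endosperm, had 16.4, 10.5 and 11.1 CPM in the mutant, against 1.93, 1.28 and 3.14 CPM in Col-0 (log2 2.62 ± 0.32 (SE), adjusted p = 3.33e-05). NCED5, of the same enzyme family, had 1.83, 0.892 and 2.27 CPM in the mutant and 5.2, 3.47 and 13.3 CPM in Col-0 (log2 -2.1, adjusted p = 0.00571), and NCED3 had 25 reads in the mutant and 0 in Col-0, at least 2.92-fold higher against a floor of 3 reads per library. ABCG25, which exports the hormone from cells, and AIT1, which imports it, both rose: ABCG25 had 77.9, 72.6 and 77.4 CPM in the mutant, against 27.6, 26.2 and 31.01 CPM in Col-0 (log2 1.43, adjusted p = 3.98e-07), and AIT1 had log2 2.94 (adjusted p = 5.71e-06). CYP707A2, which degrades the hormone on imbibition, was not called at 64.8, 73.7 and 76.1 CPM in the mutant and 123, 59.5 and 121 CPM in Col-0, except without Col-0 replicate 2 (adjusted p = 0.019) and under total-read scaling (adjusted p = 0.0365), where it fell. NCED5, NCED3 and CYP707A2 were singled out after their values were seen.

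In abscisic acid signalling 11 of 27 rose and 6 fell (11 and 8 under total-read scaling). Receptors bind the hormone and block the PP2C phosphatases, which frees SnRK2 kinases to act on bZIP factors. Among receptors PYL4 fell to 0.193, 2.14 and 0.587 CPM in the mutant, against 53.8, 26.5 and 14.4 CPM in Col-0. The groups did not overlap (log2 -5.0 ± 0.75 (SE), adjusted p = 0.000159). PYL11 fell as given above, and PYL2 rose, with 24.6, 26.9 and 31.9 CPM in the mutant and 7.6, 6.34 and 9.22 CPM in Col-0 (log2 1.86, adjusted p = 2.28e-06). Among phosphatases HAI3 rose to 189, 174 and 170.4 CPM in the mutant, against 35.8, 41.2 and 46.1 CPM in Col-0 (log2 2.12 ± 0.17 (SE), adjusted p = 8.65e-07). The kinase OST1, best known from guard cells, had 74.4, 74.9 and 84.6 CPM in the mutant, against 12.7, 7.02 and 14.2 CPM in Col-0, again with no overlap (log2 2.79 ± 0.25 (SE), adjusted p = 2.42e-06). At the end of the chain the bZIP factor ABF2 had 29.3, 25.1 and 22.8 CPM in the mutant and 5.47, 5.81 and 3.98 CPM in Col-0 (log2 2.32 ± 0.16 (SE), adjusted p = 3.25e-07).

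Of the gibberellin genes 7 of 16 rose and 2 fell (6 and 3 under total-read scaling). GA2, which makes an early precursor, had 33.5, 31.6 and 26.8 CPM in the mutant, against 5.53, 7.47 and 7.23 CPM in Col-0 (log2 2.2 ± 0.15 (SE), adjusted p = 3.25e-07). GA2OX6, which inactivates gibberellin, rose as well (log2 1.68, adjusted p = 0.00267), as did the receptor GID1A (log2 0.62, adjusted p = 0.0044) and RGL2, the DELLA repressor of germination (log2 0.93, adjusted p = 0.00599). Synthesis, inactivation, perception and repression thus each had members that rose.

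Of the ethylene genes 4 of 17 rose and 5 fell (3 and 9 under total-read scaling). The risers included the response factor ERF12, and the 5 that fell were signalling genes, among them EIN2 and EBF1; ERF12, EIN2 and EBF1 are named here after their values were seen. The call of ERF12 was lost under total-read scaling (adjusted p = 0.163) and without Col-0 replicate 1 or 3 or mutant replicate 3 (adjusted p = 0.0841, 0.0668 and 0.0545). That of EBF1 was lost without Col-0 replicate 1 or 3 or mutant replicate 1 or 2 (adjusted p = 0.122, 0.0951, 0.133 and 0.0967). ACS2, which makes the precursor, had 90.4, 77.04 and 96.4 CPM in the mutant, against 21.8, 21.7 and 27.02 CPM in Col-0 (log2 1.91 ± 0.17 (SE), adjusted p = 2.67e-06). ETR2, a receptor, had 2.12, 2.497 and 2.69 CPM in the mutant and 41.0, 22.9 and 27.02 CPM in Col-0 (log2 -3.63 ± 0.27 (SE), adjusted p = 4.75e-07). EIN3, the main factor of the response, had 447, 458 and 443 CPM in the mutant, against 914, 846 and 767 CPM in Col-0 (log2 -0.91 ± 0.09 (SE), adjusted p = 6.62e-06), and its relative EIL1 fell too (log2 -0.76, adjusted p = 0.000508). Among jasmonate genes 3 of 13 rose and 3 fell (3 and 4 under total-read scaling). OPR3, which makes jasmonate from its precursor, was nearly absent from the mutant, at 0, 0.178 and 0.336 CPM, against 6.0, 5.43 and 5.13 CPM in Col-0 (log2 -4.89, adjusted p = 2.82e-06). The JAZ repressors split, with JAZ3 higher (log2 1.21, adjusted p = 5.27e-05) and JAZ10 lower (log2 -1.89, adjusted p = 5.37e-05).

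Nuclear photosynthesis genes rose in 15 of 24 tested members, most from very low levels, with a median log2 of 1.67 (13 higher and 3 lower under total-read scaling). Another 15 of the 39 members had too few reads to be tested. Members near that limit could pass it through the group where they were high, so these figures hold only for the members tested. RCA, which keeps Rubisco active, had 165, 162 and 188 CPM in the mutant, against 3.8, 3.85 and 3.46 CPM in Col-0. All mutant values lay far above all Col-0 values (log2 5.53 ± 0.16 (SE), adjusted p = 1.34e-09). PSBR and PSBP-1, proteins of photosystem II, followed: PSBR had 77.8, 72.2 and 83.7 CPM in the mutant and 9.07, 11.4 and 9.22 CPM in Col-0 (log2 2.97 ± 0.13 (SE), adjusted p = 1.32e-08), and PSBP-1 had log2 2.84 (adjusted p = 1.78e-07). The antenna protein LHCB4.1 rose to 90.6 ± 13.1 CPM in the mutant, against 27.1 ± 3.09 CPM in Col-0 (SD, n = 3 each; adjusted p = 1.85e-06). GAPA, an enzyme of carbon fixation, was the 1 member that fell (log2 -1.27, adjusted p = 0.016; adjusted p = 0.0541 without mutant replicate 3), and was named after its values were seen. The list as a whole took 0.0335 ± 0.0018% of reads in mutant and 0.00689 ± 0.000731% in Col-0 seed coats, while genes of the plastid genome took 0.0424% to 0.0599% in mutant and 0.072% to 0.109% in Col-0 libraries.

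Chlorophyll breakdown genes, which degreen the maturing seed, rose in 4 of 7 members and fell in 0 (4 and 1 under total-read scaling). PAO, the oxygenase that opens the ring, had 78.2, 62.2 and 67.9 CPM in the mutant, against 10.3, 12.1 and 12.99 CPM in Col-0 (log2 2.56 ± 0.18 (SE), adjusted p = 3.48e-07). NYC1, which reduces chlorophyll b, had 423, 335 and 351 CPM in the mutant and 71.0, 97.04 and 123 CPM in Col-0 (log2 1.93, adjusted p = 0.000233). NYE2 and NYE1, magnesium dechelatases, also rose (log2 1.23 and 0.87; adjusted p = 0.00017 and 0.0132), though the call of NYE1 was lost without Col-0 replicate 1 (adjusted p = 0.0567). Genes for making photosynthetic proteins and genes for removing chlorophyll were thus both higher in the same libraries.

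Of the genes that loosen the endosperm wall or restrain its breakdown, 5 of 13 fell and 1 rose (7 and 0 under total-read scaling). MAN6, a mannanase of the endosperm cap, had 0.193, 0.624 and 0.0839 CPM in the mutant, against 6.07, 7.998 and 6.18 CPM in Col-0 (log2 -4.46 ± 0.54 (SE), adjusted p = 2.85e-05). Counted without regard to strand the difference was log2 -0.29 with adjusted p = 0.286, so the fall rests on the strand-specific counts. MAN7, another mannanase and named after its values were seen, was the 1 member that rose (log2 0.74, adjusted p = 0.0296). Its call was lost under total-read scaling (adjusted p = 0.183) and without Col-0 replicate 1 or 3 or mutant replicate 1 or 3 (adjusted p = 0.0583, 0.104, 0.0687 and 0.0884). The expansins EXPA8 and EXPA20 fell (log2 -4.2 and -1.87; adjusted p = 0.000193 and 0.00607), and EXPA3 had 1 read in the mutant and 16 in Col-0, a ratio of Col-0 over mutant of 14.2 with a 95% counting interval of 2.2 to 595 (adjusted p = 0.0665 without Col-0 replicate 1). PGIP1, an inhibitor of pectin breakdown, had 22.9, 26.3 and 20.6 CPM in the mutant, against 59.1, 47.9 and 56.5 CPM in Col-0 (log2 -1.23 ± 0.13 (SE), adjusted p = 1.07e-05). EPR1, described above as the most abundant gene, was not called (log2 0.32, adjusted p = 0.323).

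The lists tied to the seed coat proper held few falls among their tested members, but the mucilage and cuticle lists had lower mean shares of reads in the mutant. In the flavonoid and tannin pathway, which gives the coat its brown pigment, 8 of 20 rose and 0 fell, but 3 rose and 3 fell under total-read scaling. Another 8 of its 28 members were not tested. Its share of reads was 0.0269 ± 0.00101% in mutant and 0.0215 ± 0.000732% in Col-0 (SD, n = 3 each, exact two-sided permutation p = 0.1). TT5, chalcone isomerase, stood apart, with 32.5, 37.5 and 39.1 CPM in the mutant, against 3.0, 4.07 and 4.92 CPM in Col-0 (log2 3.21 ± 0.26 (SE), adjusted p = 1.13e-06), while C4H, of the shared phenylpropanoid route, and TT7, a flavonoid hydroxylase, rose less (log2 0.93 and 1.35; adjusted p = 3.71e-06 and 0.000108). Mucilage genes had 5 of 11 higher and 0 lower, or 1 of each under total-read scaling, and 6 of 17 members were not tested. Their share of reads was 0.0292 ± 0.00296% in mutant and 0.0354 ± 0.00439% in Col-0 (SD, n = 3 each, exact two-sided permutation p = 0.2). PMEI6, an inhibitor of pectin methylesterases, rose at a low level, with 3.28, 2.85 and 2.69 CPM in the mutant and 1.13, 1.13 and 1.05 CPM in Col-0 (log2 1.4, adjusted p = 0.000116). In cuticle and wax genes 2 of 11 rose and 1 fell (2 and 2 under total-read scaling), and 20 of 31 members were not tested. Their share of reads was 0.0072 ± 0.00105% in mutant and 0.0137 ± 0.00179% in Col-0, with no overlap (SD, n = 3 each, exact two-sided permutation p = 0.1). LTPG1, a lipid transfer protein of the cuticle, had 44.4, 58.3 and 53.7 CPM in the mutant, against 105, 90.3 and 125 CPM in Col-0 (log2 -1.04, adjusted p = 0.000224).

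Light and clock genes changed in both directions, 11 of 25 higher and 8 lower, and 8 and 9 under total-read scaling. PHYA, the phytochrome of far-red light, had 70.2, 60.7 and 74.3 CPM in the mutant, against 211, 213 and 189 CPM in Col-0 (log2 -1.58 ± 0.12 (SE), adjusted p = 7.74e-07). PHYE, another phytochrome, moved the opposite way, with 202, 215 and 169.8 CPM in the mutant and 94.6, 107 and 122 CPM in Col-0 (log2 0.86, adjusted p = 6.15e-05). In the clock GI and PRR9 rose (log2 1.09 and 1.45), whereas PRR5 fell to 3.76, 3.03 and 1.43 CPM in the mutant, against 14.7, 23.7 and 15.3 CPM in Col-0 (log2 -2.72, adjusted p = 6.43e-05). The labels do not give the clock time of dissection.

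Of the heat shock proteins and factors 4 of 27 rose and 7 fell, a share of falls near the 23.5% over all genes (4 and 14 under total-read scaling). HSP90.2, a cytosolic chaperone, had 109.6, 116 and 122 CPM in the mutant, against 296, 358 and 281 CPM in Col-0 (log2 -1.43 ± 0.15 (SE), adjusted p = 7.44e-06), and the small heat shock protein HSP17.6II fell by a like amount (log2 -1.41, adjusted p = 0.000145). BIP1, the chaperone of the endoplasmic reticulum, rose, with 52.4, 56.8 and 69.6 CPM in the mutant and 25.9, 19.1 and 18.1 CPM in Col-0 (log2 1.5, adjusted p = 5.51e-06). Antioxidant and repair genes had 7 of 19 higher and 5 lower (4 and 7 under total-read scaling). DHAR1, which recycles ascorbate, had 246, 240.1 and 252 CPM in the mutant, against 68.5, 73.5 and 72.9 CPM in Col-0 (log2 1.78 ± 0.09 (SE), adjusted p = 4.37e-08), and APX3, a peroxisomal ascorbate peroxidase, rose as CAT2 fell (log2 1.53, adjusted p = 2.72e-07).

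Sugar, protease, glucosinolate and water channel genes gave further single changes. Of the raffinose and trehalose genes 4 of 9 rose and 1 fell (3 and 3 under total-read scaling), led by the trehalase TRE1, with 99.3, 92.02 and 86.9 CPM in the mutant, against 11.8, 11.8 and 10.7 CPM in Col-0 (log2 3.01 ± 0.17 (SE), adjusted p = 8.18e-08). Among vacuolar and cell death proteases 5 of 18 rose and 1 fell (3 and 1 under total-read scaling). GAMMA-VPE, a vacuolar processing enzyme, had 397, 338 and 387 CPM in the mutant, against 88.6, 75.5 and 85.9 CPM in Col-0 (log2 2.17 ± 0.11 (SE), adjusted p = 4.17e-08), and the cysteine protease RD21A had 47.3, 52.5 and 31.7 CPM in the mutant, against 5.4, 9.51 and 4.399 CPM in Col-0 (log2 2.75, adjusted p = 7.64e-06). DELTA-VPE, a relative known from seed coat cell death, was the member that fell (log2 -2.8, adjusted p = 0.00751). Glucosinolate genes had 4 of 11 higher and 1 lower (2 and 1 under total-read scaling): MYB34, a regulator of indole glucosinolates, had 42.4, 48.1 and 36.9 CPM in the mutant and 0.0667, 0.755 and 0.419 CPM in Col-0 (log2 6.7 ± 0.38 (SE), adjusted p = 6.05e-08), and the myrosinase TGG1 had 0 reads in the mutant and 32 in Col-0, at least 3.15-fold lower. Aquaporins had 4 of 7 higher and 1 lower (4 and 2 under total-read scaling). TIP3;1, a water channel of storage vacuoles, had 5631, 4701 and 6838 CPM in the mutant, against 1726, 1861 and 2112 CPM in Col-0 (log2 1.59 ± 0.17 (SE), adjusted p = 1.03e-05), and its relative BETA-TIP rose too (log2 0.98, adjusted p = 0.000303). Of 5 tested cell cycle genes 0 were called by edgeR and 0 by DESeq2, though 1 was called lower under total-read scaling. That gene, the cyclin gene CYCB1;1, was under 0.05 before adjustment in the TMM fit (adjusted p = 0.0865) and had log2 -1.7 with adjusted p = 0.0451 under total-read scaling.

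Beyond these lists, the largest changes were taken from called genes that have a symbol, average 5 CPM or more in either genotype and show no overlap. Besides ERD10, COR47 and MYB34, the largest rises were in the borate transporter BOR4, the ABC transporter ABCC13, the early nodulin-like gene ENODL18, the ubiquitin ligase PUB19, the cytochrome P450 gene CYP78A6, the 6-phosphogluconolactonase gene PGL1 and the thylakoid lumen gene TLP18.3. BOR4 had 601 reads in the mutant and 3 in Col-0, a ratio of 226 with a 95% counting interval of 77 to 1100. PUB19, known from drought and abscisic acid responses, had 102, 56.1 and 91.6 CPM in the mutant, against 0.733, 0.981 and 2.2 CPM in Col-0 (log2 6.08 ± 0.43 (SE), adjusted p = 3.98e-07). CYP78A6, of a family that affects seed size, had 137, 104 and 178 CPM in the mutant and 0.733, 1.43 and 4.71 CPM in Col-0 (log2 6.05 ± 0.5 (SE), adjusted p = 1.26e-06). The separation of the groups in these genes followed from how they were chosen.

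The largest falls were in BGLU4, PUP7, GRX480, PYL4, OPR3, RFNR2, AT2G36400, ESE3, MAN6 and CYP81D11. BGLU4, a beta-glucosidase gene, had 0 reads in the mutant and 278 in Col-0, at least 26-fold lower against the floor of 3 reads per library. CYP81D11, a cytochrome P450 induced by oxylipins and xenobiotics, was the most abundant of them, with 10.1, 7.04 and 9.48 CPM in the mutant, against 198, 205 and 167 CPM in Col-0 (log2 -4.42 ± 0.18 (SE), adjusted p = 8.4e-09). GRX480, a glutaredoxin gene of salicylic acid responses, had 0.193, 0.178 and 0.4195 CPM in the mutant and 9.53, 3.47 and 14.04 CPM in Col-0 (log2 -5.01 ± 0.78 (SE), adjusted p = 0.000214). RFNR2, a ferredoxin reductase of non-green tissue, had 0.482, 0.713 and 0.923 CPM in the mutant, against 21.9, 16.9 and 19.9 CPM in Col-0 (log2 -4.76 ± 0.43 (SE), adjusted p = 2.85e-06). AT2G36400, growth-regulating factor 3 in the reference, fell to 0.359 ± 0.0251 CPM in the mutant, against 9.84 ± 2.37 CPM in Col-0 (SD, n = 3 each; adjusted p = 2.1e-07).

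In CPM, the largest gains were in OLEO1, AT5G59170, PAP85, AT3G17520, AT1G54870, AT1G14950, LEA7 and SESA3. AT5G59170, a proline-rich extensin-like gene, had 12211, 12673 and 13430 CPM in the mutant, against 3852, 4123 and 5135 CPM in Col-0 (log2 1.55 ± 0.14 (SE), adjusted p = 2.9e-06). AT3G17520, a LEA gene, rose by a similar factor (log2 1.46), and AT1G54870 and AT1G14950, an oxidoreductase and a lipid-binding family gene, by less (log2 0.6 and 0.75). The largest losses were in UBQ3, AT3G41768, AT5G20960, CAT2, MLS, PCK1, UBQ10 and AAE3. UBQ3, a polyubiquitin gene, had 1984, 1478 and 1837 CPM in the mutant, against 6751, 6031 and 5218 CPM in Col-0 (log2 -1.76 ± 0.17 (SE), adjusted p = 5.78e-06), and UBQ10 fell less (log2 -0.89, adjusted p = 0.000301). The polyubiquitin genes share repeats, and reads matching several loci were set aside (3.04% to 3.71% of reads in mutant and 4.07% to 4.36% in Col-0 seed coats). Reads of these genes could thus be missing from the counts. AT3G41768 is a ribosomal RNA gene counted here in poly(A)-selected libraries. AT5G20960, aldehyde oxidase 1, had 1438, 1066 and 1374 CPM in the mutant and 3133, 3141 and 3311 CPM in Col-0 (log2 -1.31 ± 0.14 (SE), adjusted p = 9.07e-06).

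Most of these changes were shared with the embryos of the same genotypes. Of the genes called in the seed coat, 2980 rose and 2350 fell in both tissues, and 92 were called in opposite ways. The difference between the effects, seed coat minus embryo, was called for 932 genes (5.74%), higher in the seed coat for 328 and lower for 604. The tissues of a genotype were paired by replicate number (correlations of 0.16 to 0.51), although the sample titles name no shared seed lot. With each such pair as a block 2577 genes were called, among them 931 of the 932. Without mutant seed coat replicate 1 or 3 the count without the block was 523 or 518.

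The genes with the smallest p for the difference that were also called in the seed coat include cell wall, auxin and redox genes. XTH11, a xyloglucan-modifying enzyme, had 151, 151 and 176 CPM in mutant and 75.4, 72.6 and 79.1 CPM in Col-0 seed coats (log2 1.07), against log2 -2.59 in the embryo (difference 3.66, adjusted p = 1.2e-05). BRU6, a GH3 enzyme that conjugates auxin, had 43.3, 60.99 and 52.8 CPM in mutant and 254, 222 and 303 CPM in Col-0 seed coats (log2 -2.31), against log2 0.58 in the embryo (difference -2.89, adjusted p = 1.2e-05). TCP14 rose more in the seed coat (difference 2.21), while NDA1, an alternative NADH dehydrogenase, and CSLG3, a cellulose synthase-like enzyme, rose in both tissues and less in the seed coat (differences -1.97 and -1.91). SRG1, named for its link to senescence, fell in the seed coat (log2 -2.51) with log2 -0.42 in the embryo (difference -2.09). Of 13 storage protein genes 3 differed between the tissues, the globulins PAP85 and CRA1 and the albumin SESA5, the last of which was named after its values were seen. PAP85 had log2 1.03 in the seed coat and -0.59 in the embryo (difference 1.62, adjusted p = 0.00258), and CRA1 had 1.18 and -0.12 (difference 1.3, adjusted p = 0.00979).

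**Figure D5:**
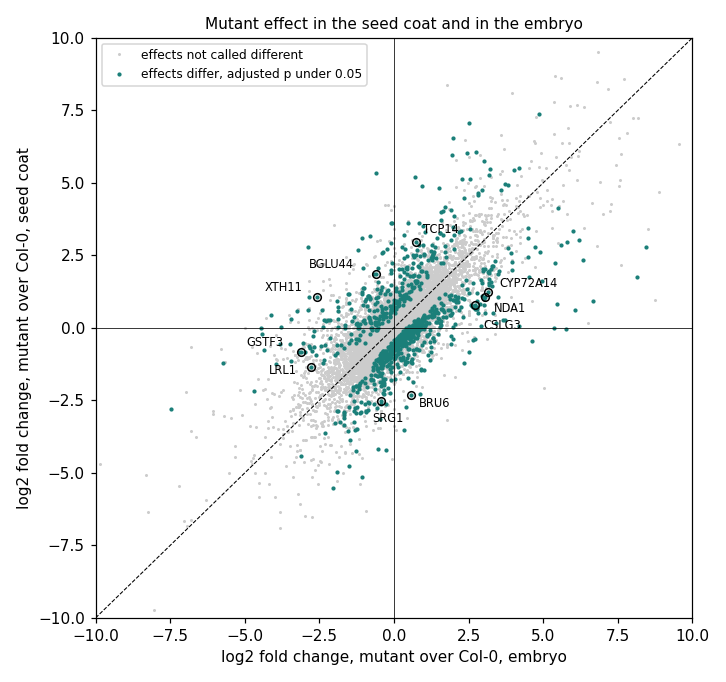
Mutant effect on each tested gene in the seed coat (vertical, log2 fold change over Col-0) against that in the embryo (horizontal), with the diagonal of equal effects and, in green, genes whose effects differed. Circled are the 5 genes each way with the smallest p for the difference, among genes with a symbol called in the seed coat. XTH11 is higher in the seed coat and lower in the embryo, and BRU6 is the reverse. Beyond the axes lies 1 gene.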

How the data were processed

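The 12 libraries were stranded poly(A) libraries with UMI adaptors, per the labels' protocols. Reads were processed by the authors with bcl2fastq 2.19, fastp 0.12.4 and STAR 2.7.9a on TAIR10, per the submitters' processing notes, and deposited as gene counts per library; whether UMIs were collapsed is not stated. From these counts, edgeR 4.0.16 (R 4.3.3) fitted 4 group means to all 12 libraries with TMM factors after filterByExpr (minimum count 10, minimum total 15). The quasi-likelihood test compared mutant with Col-0 seed coat, with Benjamini-Hochberg adjustment over 16238 genes and a threshold of 0.05; every adjusted p in the text is from this test unless another is named. It measures only the spread of 3 replicates a group. Each SE was obtained by dividing the size of the log2 fold change by the square root of this test's F value. Such an SE is approximate, and least reliable for large changes where a group has few reads. The fit was tested on simulated data. DESeq2 1.42.0 was an alternative. The members and lists were chosen with earlier results of these data known. Named were the 10 largest changes and 8 largest CPM differences each way, up to 5 genes a list by p, and 5 tissue differences each way; other genes are said to be chosen after their values were seen. Tissues of a genotype were paired by replicate number, with correlations of deviations of 0.4, 0.51 and 0.16 in the mutant and 0.4, 0.46 and 0.27 in Col-0. Correlations between tissues of different replicate numbers were not computed, so the pairing is an assumption. Promoters were read from the RefSeq genome and annotation of TAIR10.1. Counting intervals and floors cover counting error only.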

Additional observations from a re-analysis of the deposited data

Results flagged for a closer look

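For 54 of 217 named genes the mutant effect differed between seed coat and embryo by edgeR's interaction test at adjusted p under 0.05. The signed log2 fold change was above that of the embryo for 26 and below it for 28, whatever the size of the effect. Each value here is the log2 effect in the seed coat minus that in the embryo. Each of the 54 was also called with each pair of tissues, matched by replicate number, as a block.

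Opposite effects, higher in the mutant seed coat and lower in the mutant embryo, were found for XTH11 (3.66), the coat factor GL2 (2.82, with its seed coat call of adjusted p = 0.0383 lost in 8 alternatives, among them total-read scaling, DESeq2 and unstranded counts), the glucosidase BGLU44 (2.46), PAP85 (1.62) and the albumin SESA5 (1.46). BRU6 went the other way round (-2.89). VAL3 (2.97), OST1 (2.51), CRA1 (1.3) and AT5G59170 (1.27) rose in the seed coat and were not called in the embryo.

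Genes that rose in both tissues, and more in the seed coat, were ABCC13 (4.53), CYP78A6 (3.3), TLP18.3 (2.72), TCP14 (2.21), BBM (2.15), EEL (1.68), PYL2 (1.42), RCA (1.33), the aquaporin PIP2A (1.25), the linker histone HIS1-3 (1.11), BIP1 (0.94), CLO1 (0.91), the oleosin family gene AT3G18570 (0.88) and FAB2 (0.66). Genes that rose in both, and less in the seed coat, were ERD10 (-5.96), TRE1 (-3.19), LEA7 (-2.41), NCED6 (-2.26), NDA1 (-1.97), CYP72A14 (-1.91), CSLG3 (-1.91), ABCG25 (-1.86), FUS3 (-1.64), ABF2 (-1.05) and ERD14 (-1.03). No read of ERD10 was counted in Col-0 embryos, so the size of its embryo effect, and with it the difference, depends on the prior count.

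Genes that fell in both tissues, and further in the seed coat, were RFNR2 (-3.25), PHB (-2.16), SRG1 (-2.09), CYP81D11 (-1.32), ETR2 (-1.31), PGIP1 (-0.87), FAD2 (-0.74), MFP2 (-0.68) and LACS7 (-0.48). Falling less in the seed coat were ZPR3 (2.5), GSTF3 (2.27) and LRL1 (1.41). PYL12 (-1.59), AT4G18660 (-1.51), BMI1A (-1.4), LTPG1 (-1.03), KAT2 (-0.83) and UBQ10 (-0.76) fell in the seed coat and were not called in the embryo, and CYP707A2 (-1.7) was called in the embryo alone, where it rose; in the seed coat it was also called, as lower, under total-read scaling (log2 -0.8, adjusted p = 0.0365) and without Col-0 seed coat replicate 2 (adjusted p = 0.019).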

How the results depend on the processing

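Scaling by total reads alone gave 2413 genes higher and 6189 lower, in place of 4035 and 3819, and 2269 lower by at least 2-fold, in place of 1304; its median over all genes was log2 -0.3. Leaving out each library in turn gave 3613 to 3919 higher genes, 3197 to 3489 lower genes, 1780 to 1870 higher and 1182 to 1396 lower by at least 2-fold, and 250 to 272 called list members, in place of 273. The difference between tissues was called for 518 to 741 genes when a library was left out, in place of 932. With each pair of tissues as a block, an alternative added after seeing the data, it was called for 2577. With the replicate number as a block between the genotypes, 3976 genes were higher and 3771 lower; same-numbered mutant and Col-0 seed coats did not deviate together (correlations of -0.19, -0.24 and -0.036), so they share only a number. RLE size factors gave 3929 and 3880, DESeq2 3818 and 3759, the 6 seed coat libraries alone 3521 and 3613, unstranded counts 4013 and 3768, and a filter of at least 1 read 4005 and 3571. Over 217 named genes and 14 settings, 2919 of 3024 comparisons kept their side of the threshold, 96 lost the call and 9 gained it; 182 genes kept their call status in every setting run. The sign changed in 20 comparisons, over 10 genes, 0 of them called in either fit. Genes with under 3 reads per library in a group are limited by depth.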

Other observations

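Gene families defined by the product names of the reference, chosen after their values were seen, gave further patterns. Of 41 histone genes tested, 17 rose and 1 fell (median log2 0.487), and under total-read scaling 14 rose and 6 fell. The linker histone HIS1-3, known to be induced by drought, had 531, 437 and 479.9 CPM in mutant seed coats, against 12.9, 16.1 and 18.4 CPM in Col-0 seed coats, with no overlap (log2 4.94 ± 0.17 (SE), adjusted p = 2.68e-09, edgeR). Ribosomal protein genes went the other way: of 348 tested, 28 rose and 174 fell (median log2 -0.344), and 9 rose and 242 fell under total-read scaling. Of 122 translation factor genes 21 rose and 48 fell, or 10 and 67 under total-read scaling.

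Pectin lyase and pectin methylesterase inhibitor genes rose in 21 of 48 and fell in 7, or 17 and 10 under total-read scaling. MATE transporter genes, some of which carry flavonoids and hormones, rose in 9 of 31 and fell in 14, or 6 and 18 under total-read scaling. Among genes annotated as ncRNA, also chosen after their values were seen, 32 of 82 rose and 3 fell, or 23 and 10 under total-read scaling; over all genes tested 24.8% rose and 23.5% fell.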
